A study of Mus musculus with 25 samples.

Results

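The genes described here are the cytosolic ribosomal protein genes, the 79 rows of a 20870-row mouse heart RNA table whose symbols name a protein of the cytosolic ribosome. They were taken by symbol alone, with the ribosomal protein S6 kinases left out, by a rule that uses no measured value. Of the 79 genes, 44 encode proteins of the large subunit, 3 encode the P-stalk (Rplp0, Rplp1 and Rplp2) and 32 encode proteins of the small subunit. Mitochondrial ribosomal proteins and rows named as ribosomal protein pseudogenes are not members and appear only for comparison.

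RNA was taken by laser capture from frozen sections of the sinoatrial node (SAN), the pacemaker of the heart, and of the right atrium (RA). In the first set, 18 libraries covered both tissues at embryonic day 14.5 (E14.5) and postnatal days 4 (P4) and 14 (P14), with 3 libraries per tissue and stage, all from Hcn4-GFP mice on a mixed background. The second set held 7 E12.5 SAN libraries from Hcn4-GFP; Isl1 fl/fl embryos exposed to tamoxifen at embryonic day 10.5: 4 without Cre (CreNeg) and 3 that also carried the tamoxifen-inducible CAG-Cre/Esr1 transgene (CrePos), which is not restricted to 1 cell type. Both groups of the second set therefore carry the floxed allele and received tamoxifen. Which libraries share an animal is not given by the labels, and the p-values cover only library-to-library spread. CrePos replicate 2 is called an outlier in its title and was left out of the tests, though its values are printed and enter the group means.

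A ribosome is built from ribosomal RNAs and one copy of nearly every ribosomal protein, so the genes of this family are expressed at high levels in most cells. Their mRNAs typically begin with a run of pyrimidines, the 5′ terminal oligopyrimidine (TOP) motif, through which growth signals such as mTOR control their translation. Ribosome production is high in growing and dividing tissue, and the fetal heart grows by cell division until shortly after birth. Striated muscle has a variant of one large subunit protein, Rpl3l, the paralog of Rpl3, which sits close to the peptidyl transferase centre.

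RefSeq promoter windows (build GRCm38.p6, 250 bases before to 50 bases from each annotated start) were present for 58 of the 79 genes, as 70 windows. A pyrimidine run of at least 5 bases (only C and T) that began with C within 2 bases of the annotated start, read from there on whatever the bases before it, was found in 22 of these 70 windows (31.4%), against 8.96% of all 32851 windows. The 30 bases around the start, 10 before it and 20 from it, are printed here for 4 genes with such a run and for 3 without one. The first 4 are Rps18, Rps10 and Rpl14, which were among the larger falls, and Rpl35, which has the longest run of the 4. The others are Rpl4, the muscle paralog Rpl3l, and Rpl22, which was also among the largest falls in the SAN though its windows hold no such run. Rpl22 and Rpl3l each have a further window, not printed, that also holds no such run. Whether the mRNAs themselves begin at these annotated starts was not tested. Capitals mark the pyrimidine run.
Rps18, chr17:33955646-33955675, minus strand: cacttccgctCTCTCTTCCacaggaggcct
Rps10, chr17:27635225-27635254, minus strand: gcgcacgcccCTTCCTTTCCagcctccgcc
Rpl35, chr2:39005112-39005141, minus strand: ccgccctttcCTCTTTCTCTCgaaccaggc
Rpl14, chr9:120571507-120571536, plus strand: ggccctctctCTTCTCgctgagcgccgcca
Rpl4, chr9:64173377-64173406, plus strand: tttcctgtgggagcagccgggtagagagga
Rpl22, chr4:152324426-152324455, plus strand: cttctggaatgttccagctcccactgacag
Rpl3l, chr17:24727816-24727845, plus strand: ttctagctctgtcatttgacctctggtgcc
In the 4 windows with a run, the capitals begin at the annotated first base of the transcript, and the bases just before it are also C or T. On either strand, CCGGAAG, a core of the sites of ETS-family factors, was present in 26 of the 70 windows (37.1%, against 8.86% of all windows). AAGATGGC, a core of YY1 sites, was present in 7 (10%, against 2.75%), and TATAAA in 6 (8.57%, against 13.6%). A match of letters is a description of the window and shows no binding.

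Levels are given as CPM, the authors' TMM-scaled values divided by 1 constant for all libraries, so library totals are not equal on this scale. Relative to the mean of all 25 libraries, the totals stood at 0.992 to 1.22 in the 18 libraries. In the 7 Isl1-set libraries they stood at 0.632 to 0.890. The 18 libraries held 5101711 to 17997496 reads in genes and the 7 Isl1-set libraries 45298069 to 88020254. The tissue labels matched the levels of Hcn4 and Nppa. The channel gene Hcn4, which defines the node, was at 1141 to 3748 CPM in the 9 SAN libraries and 4.43 to 31.1 CPM in the 9 RA libraries. The atrial peptide gene Nppa was at no more than 34.4 CPM in the SAN and at 320 to 1453 CPM in the RA. Summed over 9 working atrial markers, Nppa among them, the SAN stood above the RA at E14.5 (8570 to 9048 against 5817 to 7830 CPM). At P4 and P14 this sum was lower in the SAN (6237 to 7091 against 7211 to 11637 CPM, and 6502 to 7497 against 10806 to 14495 CPM). Summed ventricular myocyte markers spanned 196 to 1503 CPM at SAN E14.5 and 166 to 183 CPM at RA E14.5. In the Isl1 set, Isl1 itself stood at 67.4, 88.5, 47.8 and 83.2 CPM in the CreNeg libraries and at 71.7, 2.85 and 53.9 CPM in those labelled CrePos. Its gene-level value did not differ by the test (log2 difference -0.16, SE 0.280, limma adjusted p = 0.734, CrePos replicate 2 left out). Such a value also counts exons outside a floxed segment, and which exons are floxed is not given in the sources used here. Hcn4 was lower in the libraries labelled CrePos by 1.25 on the log2 scale (adjusted p = 0.00513).

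Ribosomal protein mRNA made up a smaller share of the libraries at P14 than at E14.5 in both tissues. In the SAN, the 79 genes took 2.83%, 2.50% and 2.69% of the 3 E14.5 libraries, 1.48%, 1.73% and 1.85% at P4, and 1.44%, 1.27% and 1.15% at P14. By these rows no SAN library overlapped between stages, though P4 and P14 lay close (1.48% against 1.44%). The mean share was 2.67% ± 0.166 (SD, n = 3) at E14.5, 1.68% ± 0.189 at P4 and 1.28% ± 0.145 at P14. In the RA, the shares were 2.16%, 1.72% and 2.75% at E14.5, 1.77%, 2.31% and 1.31% at P4, and 1.28%, 1.44% and 1.54% at P14. The RA means, 2.21% ± 0.519, 1.80% ± 0.503 and 1.42% ± 0.130, followed the same order, but E14.5 and P4 overlapped and P4 replicate 3, the shallowest library, lay at the level of P14. Against 100 units of all other RNA, with pseudogene rows, hemoglobin and mitochondrial genes also set aside, the 79 genes stood at 2.78, 1.72 and 1.31 units in the SAN at the 3 stages and at 2.33, 1.85 and 1.44 in the RA. Hemoglobin took 0.379% to 3.75% of the RA E14.5 libraries and 0.0390% to 0.0898% at RA P14.

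**Figure D1:**
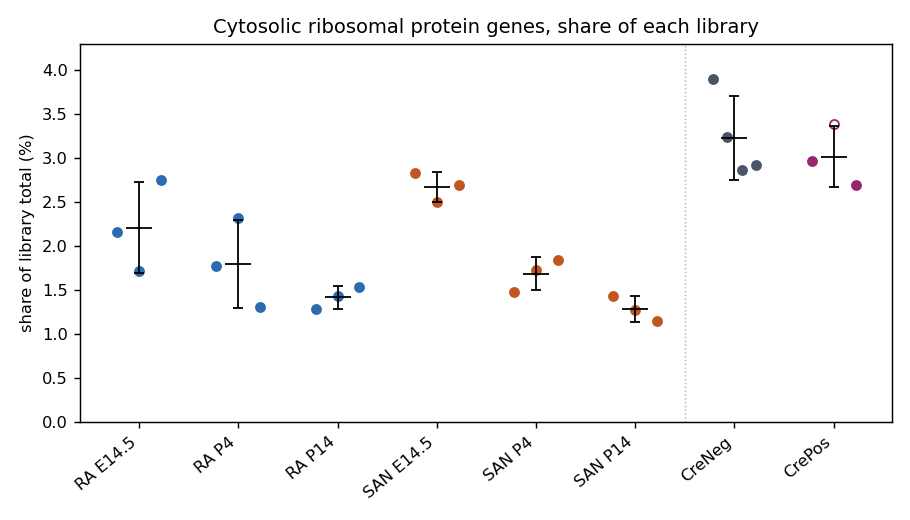
Share of each library's total (%) in the 79 ribosomal protein genes, by group. Points are libraries, bars are the mean ± SD, and the open point is CrePos replicate 2. The SAN falls from a mean of 2.67% at E14.5 to 1.28% at P14 without overlap between stages, while the 3 RA P4 libraries span 1.31% to 2.31%. With pseudogene copies added (not shown), SAN P4 and P14 overlap.

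The fall from E14.5 to P14 in the SAN ran through almost the whole family. Of the 78 genes tested (Rpl39l was too low), 77 fell at an adjusted p under 0.05 (limma on log2(CPM + 1), 17568 genes in all) and 0 rose, where 14.5% of all genes fell and 9.74% rose. Their median change was -1.18 on the log2 scale, a fold of 0.440, against -0.18 for all genes tested. The exception was Rpl3l, which was near the detection floor. Without it the changes ran from -1.81 (Rps18) to -0.66 (Rpl10, a protein needed for the joining of the subunits). The call covered 42 of 43 large subunit genes (median -1.14), 32 of 32 small subunit genes (median -1.23) and 3 of 3 P-stalk genes (median -1.08). In captured regions that hold several cell types, fewer cells of a type and less RNA per cell cannot be told apart.

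In the RA the same interval gave 51 called genes of 78, all lower, where 16.7% of all genes fell and 5.99% rose. The median change was -0.87 (a fold of 0.548), against -0.37 for all genes. By role, 29 of 43 large subunit genes fell (median -0.84), 21 of 32 small subunit genes (median -0.92) and 1 of 3 P-stalk genes (median -0.41). The RA count depended on the setting: it was 24 with equal upper quartiles, 14 with edgeR and 20 with DESeq2, all lower. On a scale that sets the level of 20 sarcomere genes equal in all libraries it was 70, and with library weights 72, all lower. Without RA E14.5 replicate 3, whose ribosomal protein share was the highest of its group, it was 31. The 16.7% belongs to the main fit, and the called share of all genes under these settings is not given here. The median of all genes moved too, to -0.11 with equal upper quartiles, -0.66 on the sarcomere gene scale and -0.33 with library weights.

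Scaling moved all genes along with the members. With equal upper quartiles the median of all genes from E14.5 to P14 became -0.07 in the SAN and -0.11 in the RA, and that of the members -1.05 and -0.55. The distance between the members' median and that of all genes moved less: -1.01 in the SAN, with a range of -1.07 to -0.97 over 13 settings, and -0.49 in the RA, with a range of -0.63 to -0.41.

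**Figure D2:**
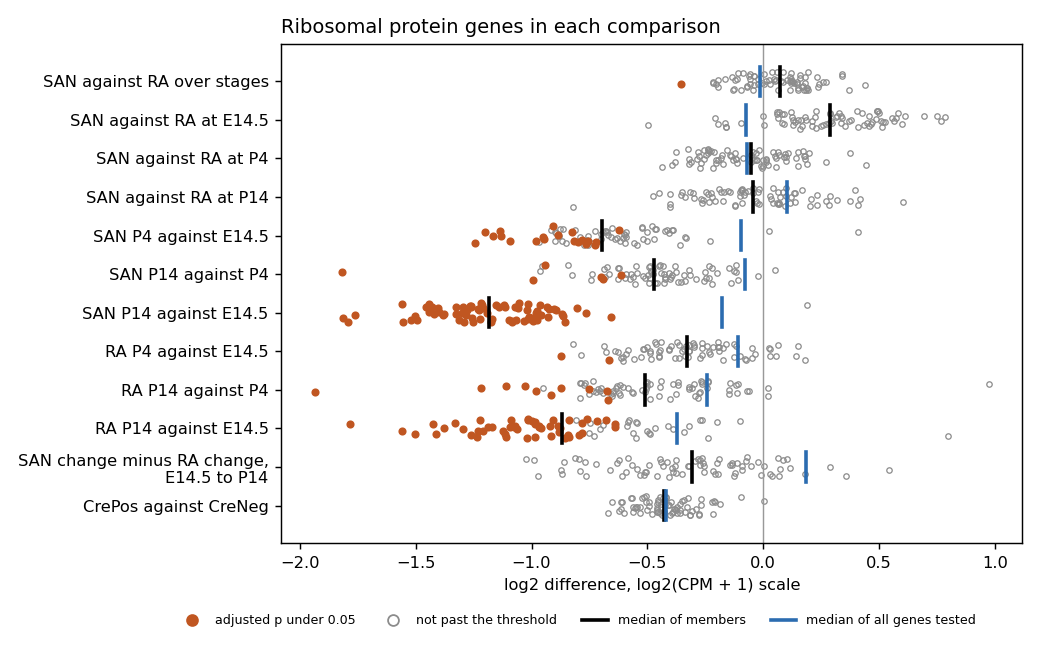
Log2 difference of each tested ribosomal protein gene in the 12 comparisons, on the log2(CPM + 1) scale. Filled points passed an adjusted p under 0.05, black bars are the median of the members and blue bars that of all genes tested. From E14.5 to P14 in the SAN the black bar stands at -1.18 and the blue at -0.18. Between CrePos and CreNeg the bars lie at -0.43 and -0.42 in this main fit.

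Among small subunit genes, Rps18, a protein of the head of the small subunit, had the largest fall in the SAN. It measured 215, 170 and 238 CPM at E14.5, 91.7, 154 and 104 CPM at P4, and 54.9, 107 and 32.8 CPM at P14. E14.5 and P14 did not overlap, and the P14 libraries spread widely, with replicate 3 lowest and replicate 2 highest. The change was -1.81 (SE 0.328, adjusted p = 0.000302), and in the RA, from 185, 159 and 211 CPM to 51.3, 91.4 and 49.9 CPM, it was -1.56 (adjusted p = 0.00135).

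Rps26, which lies at the mRNA exit channel, stood at 256, 199.99 and 250 CPM in the SAN at E14.5, 82.3, 119 and 120 CPM at P4, and 76.3, 72.4 and 57.5 CPM at P14. Most of its fall came before P4, with -1.14 (adjusted p = 0.00593) from E14.5 to P4, and -1.76 (SE 0.250, adjusted p = 2.13e-05) over the whole interval. In the RA it changed by -1.17 (adjusted p = 0.00156), from 175, 137 and 199 CPM to 60.6, 93.6 and 72.4 CPM. Rps3a, another small subunit protein, went from a mean of 726 CPM at SAN E14.5 to 305 at P4 and 322 at P14. Its change from E14.5 to P4 was -1.25 (adjusted p = 0.00190), and none was detected from P4 to P14 (0.05, adjusted p = 0.940).

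Among large subunit genes, Rpl22, an RNA-binding protein of the subunit's surface, fell in the SAN from 310, 237 and 332 CPM to 123, 111 and 67.8 CPM. This was a change of -1.56 (SE 0.266, adjusted p = 0.000159). In the RA it went from 228, 195 and 254 to 100, 147 and 132 CPM, a change of -0.84 (adjusted p = 0.0258). Rpl32 changed in both tissues, with -1.42 in the SAN (means 515 to 193 CPM, adjusted p = 0.000208) and -1.42 in the RA (432 to 159 CPM, adjusted p = 0.000220). Rpl14 changed by -1.50 in the SAN (adjusted p = 0.000104) and by -1.24 in the RA (adjusted p = 0.000776).

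Rpl4, an abundant large subunit protein that reaches into the peptide exit tunnel, had its called change before P4. In the SAN it measured 946, 1016 and 982 CPM at E14.5, 504, 520 and 707 CPM at P4, and 543, 557 and 587 CPM at P14. In the RA it measured 1049, 1015 and 1235 CPM, then 742, 824 and 535 CPM, then 634, 652 and 625 CPM. E14.5 stood above every later library in both tissues, whereas P4 and P14 overlapped. From E14.5 to P4 the change was -0.78 in the SAN (adjusted p = 0.00454) and -0.67 in the RA (adjusted p = 0.0144). The RA call was lost without RA E14.5 replicate 3 (adjusted p = 0.0800) or RA P4 replicate 3 (adjusted p = 0.110). From P4 to P14 the values were -0.02 and -0.11, neither called.

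The P-stalk recruits translation factors to the ribosome. Rplp0, its base, went from 468, 320 and 400 CPM to 196, 170 and 187 CPM in the SAN (-1.08, adjusted p = 0.00125) and from 337, 297 and 407 to 184, 228 and 255 CPM in the RA (-0.64, adjusted p = 0.0465). Rplp2 fell in the SAN from 496, 428 and 441 to 215, 161 and 145 CPM (-1.40, adjusted p = 0.00121), and in the RA 255, 195 and 378 CPM at E14.5 stood beside 188, 181 and 234 at P14 (-0.41, adjusted p = 0.336). Rplp1 fell in the SAN from 374, 328 and 487 to 287, 190 and 147 CPM (-0.96, adjusted p = 0.0321). In the RA, its E14.5 libraries at 246, 261 and 359 CPM overlapped with 189, 336 and 295 CPM at P14 (-0.10, adjusted p = 0.857). For none of the 3 did the test of the difference between tissues pass the threshold, with a smallest adjusted p of 0.245.

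**Figure D3:**
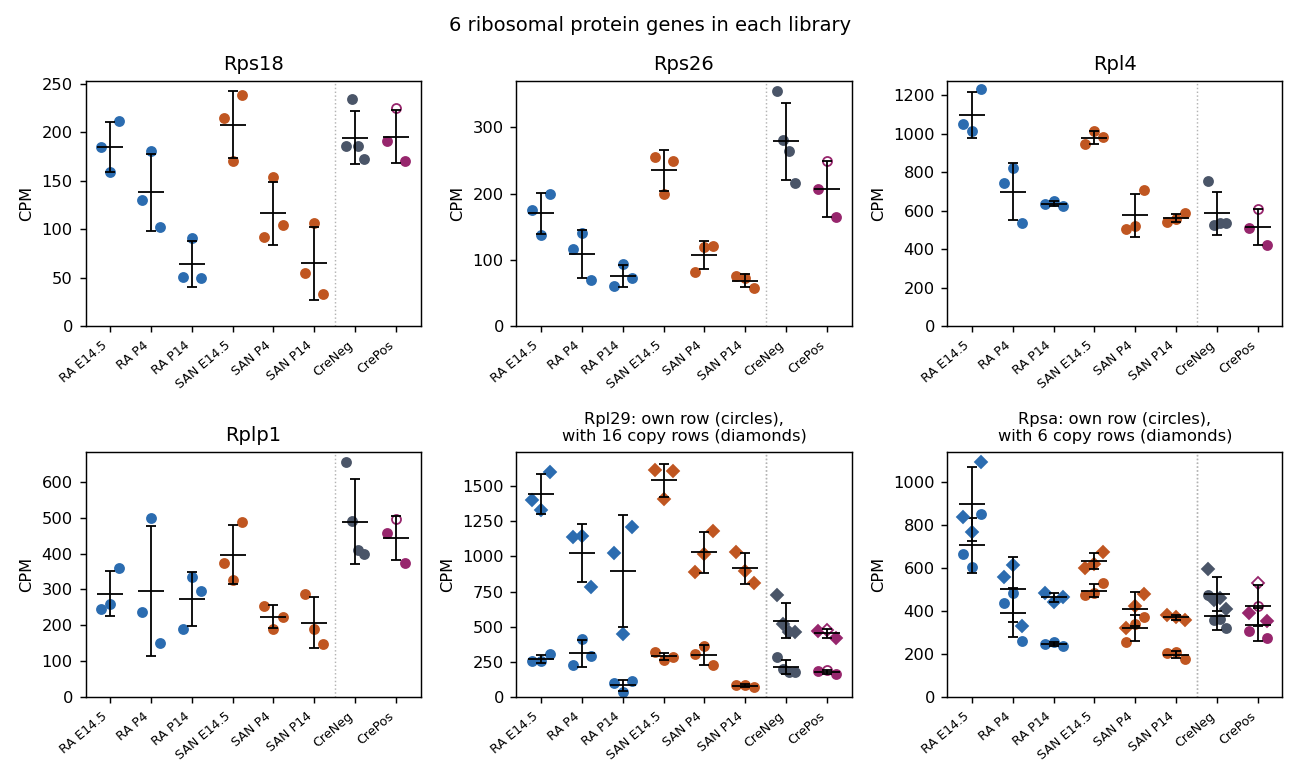
CPM of 6 ribosomal protein genes in each library, by group, with the mean ± SD. In the panels of Rpl29 and Rpsa, circles are the gene's own row and diamonds the sum with its pseudogene copies, and open symbols are CrePos replicate 2. Rpl29's own row lies between 41.0 and 115 CPM in the 6 P14 libraries, below every other library, while its sums at P4 and P14 overlap.

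Many members share sequence with pseudogene copies. For Rpl29 and Rpsa, described below, the part of the summed CPM that lay in the gene's own row differed between stages. In GENCODE transcripts, a median of 47.1% of the 30-base words of a member's longest coding transcript also occurred in another gene. For Rpl3l this was 0, and for Rps18 91.0%, although the copy row of Rps18 held only 0.152% of their summed CPM. In all, 268 rows were copies of 63 members, counting pseudogenes that held at least 20% of a member's words or were named for it. These rows took 0.981% of the SAN libraries on average at E14.5, 0.638% at P4 and 0.561% at P14, so they fell along with the members. Members and copies together took 3.65% ± 0.225 of the SAN libraries at E14.5, 2.32% ± 0.290 at P4 and 1.84% ± 0.196 at P14. By this sum SAN P4 and P14 overlapped (lowest 2.01% at P4, highest 2.06% at P14), while E14.5 stayed apart (lowest 3.42%). In the RA the same sum was 3.07% ± 0.711, 2.48% ± 0.651 and 2.02% ± 0.192. With each copy added to its gene, 76 members of 78 fell from E14.5 to P14 in the SAN and 50 in the RA, an alternative chosen after seeing the data.

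Rpl29 showed the largest single fall by its own row after P4. It measured 310, 363 and 227 CPM at SAN P4 and 90.8, 86.4 and 72.5 CPM at SAN P14 (-1.82, SE 0.287, adjusted p = 0.000638). At RA P4 it measured 231, 417 and 291 CPM, and at RA P14 103, 41.0 and 115 CPM (-1.93, adjusted p = 0.000392). From E14.5 to P4 its values overlapped in both tissues (0.03 and 0.15, neither called). With its 16 copy rows, which hold 80.3% of the summed CPM, no change was called: the sums were 888, 1019 and 1181 CPM at SAN P4 against 1034, 896 and 812 at P14 (-0.17, adjusted p = 0.779). In the RA they were 1134, 1146 and 783 CPM at P4 against 1023, 447 and 1211 CPM at P14 (-0.29, adjusted p = 0.5504). Over the whole interval from E14.5 to P14, the sums fell by 0.76 in the SAN (adjusted p = 0.0310) and by 0.81 in the RA (adjusted p = 0.0234), less than the own row's changes of -1.79 and -1.78.

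Rpsa, a small subunit protein also known as the laminin receptor precursor, was the only member called between tissues over all stages (limma adjusted p = 0.0488). That call was lost in 15 of 18 fits without a library, and 5.36% of all genes were called lower in that test. Rpsa was not called between tissues at any single stage, E14.5 included. It stood at 665, 606 and 851 CPM in the RA at E14.5 and at 474, 485 and 529 in the SAN, without overlap. At P4 it was at 436, 483 and 264 CPM in the RA and 257, 340 and 373 in the SAN, and at P14 at 247, 256 and 236 CPM against 205, 210 and 178. From E14.5 to P14 it changed by -1.50 in the RA (SE 0.201, adjusted p = 1.21e-05) and by -1.32 in the SAN (adjusted p = 4.41e-05). Its copies shifted between stages: Rpsa-ps5 lay at 0 to 0.356 CPM in the 6 P14 libraries and at 11.9 to 40.3 CPM in the other 19, and Rpsa-ps10 at 125 to 174 CPM against 25.2 to 112. With its 6 copies added, the change from E14.5 to P14 was -0.93 in the RA (adjusted p = 0.00161) and -0.76 in the SAN (adjusted p = 0.00727). From P4 to P14 the sums changed by -0.06 and -0.12, where the own row gave -0.63 and -0.69 (adjusted p = 0.0615 and 0.0446 in the RA and the SAN). The SAN call of the own row was also lost without SAN P4 replicate 2 or 3, or without any 1 SAN P14 library. Whether reads were assigned among near-identical copies in the same way in all libraries was not tested.

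Over the single intervals fewer members were called. From E14.5 to P4 in the SAN, 20 of 78 genes fell and 0 rose, where 4.39% of all genes fell and 3.85% rose (members' median -0.70, all genes -0.10). The largest falls were those of Rps3a, Rpl32 (-1.20, adjusted p = 0.00366), Rps10 (-1.17, adjusted p = 0.0278) and Rps26. The count was 6 without SAN E14.5 replicate 1, 8 without replicate 2, 8 without replicate 3, 4 without SAN P4 replicate 1 and 12 without SAN P4 replicate 2, and 6 with edgeR. The Rps10 call was lost in each of these 5 fits without a library.

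In the RA over that interval, 2 genes fell (Rpsa -0.87 and Rpl4 -0.67) and 0 rose, where 3.56% of all genes fell and 3.23% rose (members' median -0.33, all genes -0.11). The count was 0 without RA E14.5 replicate 3, 0 without RA P4 replicate 3 and 7 without RA P4 replicate 2. Both calls were lost without either replicate 3.

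From P4 to P14 in the SAN, 6 genes fell and 0 rose, where 2.91% of all genes fell and 2.68% rose (members' median -0.47, all genes -0.08). After Rpl29, the largest were Rpl14 (-0.99, adjusted p = 0.0195), Rps7 (-0.94, adjusted p = 0.0116) and Rpl17 (-0.70, adjusted p = 0.0370). The count was 10, 1 and 3 without SAN P4 replicates 1, 2 and 3, and 3 and 2 without SAN P14 replicates 1 and 3. The calls of Rpl14, Rps7 and Rpl17 were each lost without SAN P4 replicate 2 or SAN P14 replicate 3, that of Rpl14 also without SAN P14 replicate 2, and that of Rpl17 in 5 of 6 such fits.

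From P4 to P14 in the RA, 10 genes fell and 0 rose, where 5.42% of all genes fell and 1.34% rose (members' median -0.51, all genes -0.24). After Rpl29, large falls were those of Rps20 (-1.22, adjusted p = 0.0242) and Rps18 (-1.11, adjusted p = 0.0440). RA P14 replicate 2 was uneven among the members: Rps20 stood at 61.9 CPM there, against 139 and 198 in the other two libraries, while Rps18 was at 91.4 against 51.3 and 49.9. The count was 2 without that library, 5 without RA P14 replicate 1, 1 without RA P4 replicate 2 and 23 without RA P4 replicate 3. It was 1 with equal upper quartiles, with edgeR and with DESeq2, and 25 on the sarcomere gene scale. The median of all genes was 0, 0, 0.01 and -0.37 under these settings, and their called share is not given here. The Rps20 call was lost without RA P14 replicate 2 or RA P4 replicate 2, and that of Rps18 in 4 fits without a library, those without RA P4 replicate 1 or 2 or RA P14 replicate 1 or 3.

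Few members were called between the tissues. Over all stages, Rpsa was lower in the SAN by 0.36 (SE 0.116, adjusted p = 0.0488) and 0 members were higher, where 5.36% of all genes were lower and 6.11% higher (members' median 0.07, all genes -0.01, 3 members at an unadjusted p under 0.05). That call was lost without a library in 15 of 18 such fits, with an adjusted p of up to 0.109. At E14.5, 70 of 78 members had values above 0 in the SAN relative to the RA (median 0.29, all genes -0.07). On the sarcomere gene scale the members' median turned to -0.06, beside -0.37 for all genes. None was called by limma, by edgeR or by DESeq2, where 2.24% of all genes were higher and 3.09% lower, and 9 members were at an unadjusted p under 0.05. The smallest adjusted p was 0.114, for Rps14 (0.78). At P4, 0 members were called (2.97% of all genes higher, 2.99% lower, 0 at an unadjusted p under 0.05), with a median of -0.05 against -0.07 for all genes. At P14, 0 members were called (3.21% of all genes higher, 1.34% lower, 1 at an unadjusted p under 0.05), with a median of -0.04 against 0.10. The SAN E14.5 libraries and the RA E14.5 libraries also differed in hemoglobin, at 0.275% to 0.981% against 0.379% to 3.75% of the total.

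Tested as an interaction of tissue and stage (E14.5 and P14), none of the 78 members was called by limma, edgeR or DESeq2, where 1.64% of all genes were called higher and 0.632% lower. Of the 78 values, 65 were below 0 (median -0.31, all genes 0.18). For 64 of them this means a larger fall in the SAN, and for Rpl3l a smaller positive value there. Of the 78, 8 were at an unadjusted p under 0.05. On the sarcomere gene scale the members' median turned to 0.24, beside 0.65 for all genes. These changes rest on separate libraries in each tissue. Side by side, 77 of 78 members had negative changes in both tissues, 51 were called in both, 26 in the SAN and not in the RA, and 0 in the RA and not in the SAN. Across the 78 genes, which are not independent replicates, the changes in the tissues were related with a Pearson r of 0.56 and a Spearman rho of 0.375. Rps27, a zinc-finger protein of the small subunit, was among the 26: it fell in the SAN from 611, 405 and 706 CPM to 332, 272 and 151 CPM (-1.22, adjusted p = 0.00368), while the RA had 344, 363 and 424 CPM at E14.5 and 212, 505 and 325 CPM at P14 (-0.20, adjusted p = 0.661).

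**Figure D4:**
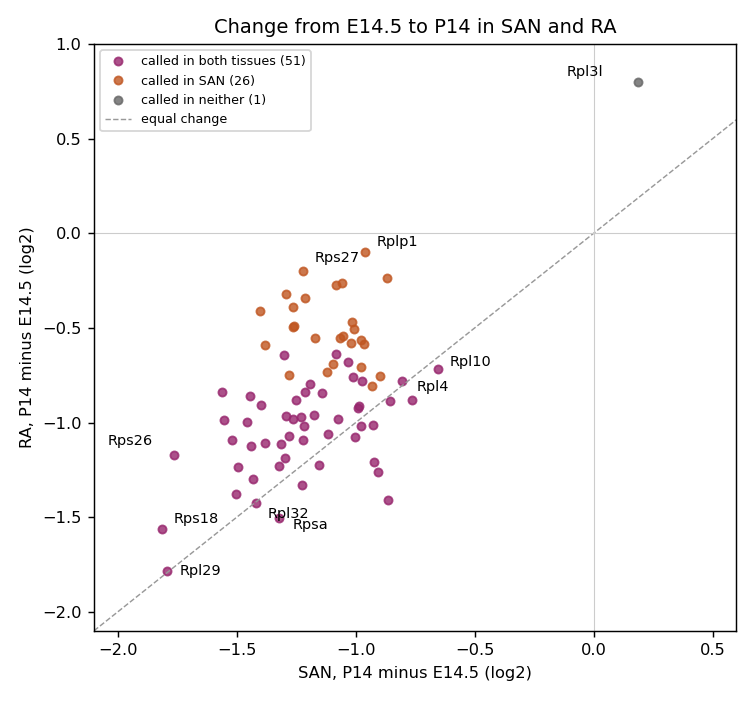
Log2 change from E14.5 to P14 of the 78 tested members in the SAN (x) and the RA (y), coloured by where the change passed an adjusted p under 0.05. The dashed line marks equal change. All but Rpl3l lie below 0 on both axes, 65 lie above the line, where the SAN value is the lower one, and Rplp1 and Rps27 lie near 0 on the RA axis.

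To see which members left the common course, each library was centred on the median log2 level of the members, an alternative chosen after seeing the data. From E14.5 to P14 in the SAN, 0 of 78 members then passed the threshold, and Rps26, Rps18, Rpl29 and Rpl22 stood at -0.60, -0.65, -0.63 and -0.39. In the RA, Rpl29 (-0.95, adjusted p = 0.0279) and Rpsa (-0.67, adjusted p = 0.0477) remained called. Both genes have copy rows, and this scale used only their own rows. The ratio of large to small subunit CPM was 1.54 to 1.69 as group means in the 18 libraries and 1.40 in both groups of the Isl1 set.

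Rpl3l, the muscle variant, was at the edge of detection in every group. Its RA libraries held 0.226, 1.29 and 0.891 CPM at E14.5, 1.42, 0.524 and 0 at P4, and 1.17, 2.67 and 2.51 at P14. Its SAN libraries held 0.289, 1.05 and 0.301 CPM at E14.5, 0.642, 3.91 and 0 at P4, and 0.164, 0 and 3.36 at P14. These values rest on 0 to 42 reads per library, with 6 of the 18 libraries at or under the floor of 3 reads and 3 at 0. Stages of the same tissue overlapped, while the RA P14 libraries stood above those of SAN E14.5. The smallest adjusted p for a stage change was 0.350 (RA from P4 to P14, 0.97), and no rise or fall was detectable at this depth. In the order of the group means, 2.12 CPM at RA P14 was the highest and 0.546 at SAN E14.5 the lowest, and no neighbouring groups differed beyond their spread.

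Rpl3, its counterpart, was at 168 to 534 CPM in the same libraries. In the SAN it went from 484, 444 and 534 CPM at E14.5 to 295, 305 and 352 at P4 and 254, 219 and 264 at P14. In the RA the values were 418, 367 and 482 CPM, then 333, 383 and 168 CPM, then 216, 227 and 224 CPM. P14 lay below E14.5 without overlap in both tissues: the change was -0.99 in the SAN (SE 0.219, adjusted p = 0.00200) and -0.91 in the RA (adjusted p = 0.00401). The RA call was lost with equal upper quartiles (-0.59, adjusted p = 0.0691), edgeR and DESeq2.

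**Figure D5:**
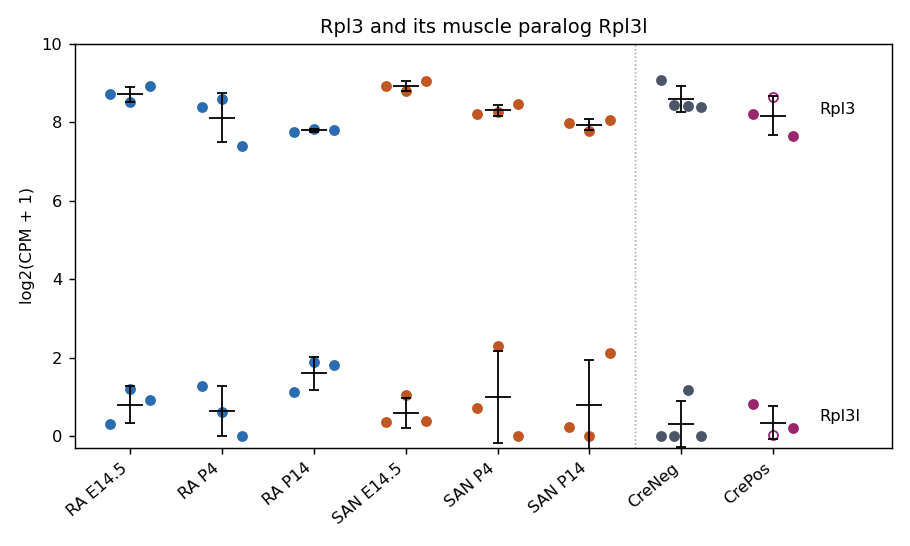
log2(CPM + 1) of Rpl3 and Rpl3l in each library, by group, with the mean ± SD and CrePos replicate 2 as an open point. Rpl3l stays at or below 3.91 CPM in all 25 libraries, while Rpl3 is at 168 CPM or more in each.

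Over the 18 libraries, the 5 genes outside the family whose log2 levels ran most like those of Rpl3l were Ublcp1, Slc37a4, Zdhhc5, Spty2d1 and Mvp, with a Pearson r of 0.68 to 0.76 among 12172 genes compared. With counts this low, that is a description only. For the mean of the members the closest rows were Gm10335, Gm10132, Gm3362, Rpl23a-ps3 and Rpl19-ps11 (r of 0.95 to 0.98). These rows are annotated as pseudogenes.

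Among other variants of ribosomal proteins, Rps27l, Rpl22l1 and Rpl36al fell in the SAN. Rps27l, the paralog of Rps27, fell from a mean of 64.0 to 34.8 CPM (-0.87, adjusted p = 0.0477), beside 39.5 and 33.1 CPM in the RA (-0.24, adjusted p = 0.626). Rpl22l1, the paralog of Rpl22, fell from 113 ± 4.31 to 43.0 ± 5.97 CPM (SD, n = 3) in the SAN (-1.39, limma adjusted p = 0.0112). Rpl36al fell from 121 to 52.0 CPM (-1.20, adjusted p = 0.000425), near Rpl36a at -1.12 (adjusted p = 0.000510). In the RA, Rpl22l1 and Rpl36al had values of -0.61 and -0.47, neither called, and Rpl36a fell by 1.06 (adjusted p = 0.000862). Rpl7l1, at 15.4 to 30.4 CPM as group means, was not called in either tissue, and Rpl39l, at 0 to 0.451 CPM, was at or under the floor in 17 of 18 libraries.

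Per kilobase of coding sequence, Rpl41, Rpl39 and Rps29 stood highest, at 7683, 2194 and 1544 CPM per coding kilobase over the 18 libraries. Rpl39l (0.229), Rpl3l (0.929) and Rpl23a (152) stood lowest. Reads from untranslated parts count too, which lifts short genes: the coding part of Rpl41 has 75 bases. Rpl23a's 11 copy rows hold 82.6% of the summed CPM of gene and copies, so its own row may understate it, which was not tested. Within groups, Rpl3l, Rpl39 and Rps23 varied most between libraries, with an SD of log2(CPM + 1) of 0.784, 0.574 and 0.554.

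Other parts of the translation machinery are given by lists chosen for the family's pathway, to be read beside the shares of all genes. From E14.5 to P14, 14.5% of all genes fell and 9.74% rose in the SAN, and 16.7% fell and 5.99% rose in the RA. Of 19 further TOP mRNAs, 14 fell in the SAN from E14.5 to P14 (median -0.91) and 11 in the RA (median -0.80), and 0 rose. Among them, Npm1, a nucleolar assembly factor, fell by 1.30 in the SAN (529 to 214 CPM) and by 1.96 in the RA (706 to 180 CPM), and the RNA-binding protein gene Hnrnpa1 by 1.60 and 1.57. The elongation factor gene Eef1a1 fell from 3619 to 1653 CPM in the SAN (-1.13, limma adjusted p = 2.32e-06) and from 3840 to 1658 CPM in the RA (-1.21). Its muscle and nerve paralog Eef1a2 rose, from 26.8 to 64.6 CPM in the SAN (1.26, adjusted p = 0.0108) and from 7.78 to 49.7 CPM in the RA (2.63, adjusted p = 1.17e-05). Gnb2l1, which encodes the ribosome-bound scaffold RACK1, fell from 400.4 to 186 CPM in the SAN and from 384 to 175 CPM in the RA.

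Of 29 initiation factor genes, 14 fell and 0 rose in the SAN (median -0.51), and 13 fell and 1 rose in the RA (median -0.61). Of 37 ribosome biogenesis genes, 10 fell and 0 rose in the SAN (median -0.76) and likewise in the RA (median -0.83). They included the snoRNP protein gene Nop58, with -1.39 in the SAN and -1.30 in the RA, and nucleolin, Ncl, with -0.79 and -1.03. Of 11 tested RNA polymerase I genes, 3 fell in the SAN and 2 in the RA, few genes and in the RA near the share of all genes. Rrn3, the initiation factor of that polymerase, fell by 1.14 in the SAN (adjusted p = 0.000157). Of 78 mitochondrial ribosomal protein genes, 13 fell and 0 rose in the SAN (median -0.62), and 3 fell and 1 rose in the RA (median -0.20). The SAN count is near the share of all genes that fell there, and the RA count is under it. In the list of Myc, mTOR and TOP mRNA regulators, 3 of 19 fell and 1 rose in the SAN (median -0.26), near the share of all genes, and 6 fell and 0 rose in the RA (median -0.57). In the SAN, Eif4ebp1, a translation repressor, changed by -1.39, Tsc2, an inhibitor of mTOR, by -1.13, and Mxd4, a Myc antagonist, by 0.91.

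Markers of other processes and cell types moved over the same interval, in which 9.74% of all genes rose and 14.5% fell in the SAN. In the RA, 5.99% of all genes rose and 16.7% fell. All 23 cell cycle genes fell in both tissues (median -3.41 in the SAN, -2.90 in the RA), with summed levels of 2489 to 3649 CPM at SAN E14.5 and 367 to 404 CPM at SAN P14. Of 16 fibroblast markers, 10 rose in the SAN (summed level 4731 to 7770 CPM at E14.5, 21225 to 24481 CPM at P14), and in the RA 10 rose and 1 fell. Of 15 tested macrophage markers, 11 rose in the SAN and 3 in the RA, and of 10 erythroid markers, 6 fell in the SAN and 9 in the RA. The SAN markers themselves also fell in the SAN, 5 of 7 with a median of -1.35, and their summed mean level went from 5093 to 2929 CPM. The part of these changes in the fall of the ribosomal protein genes was not tested.

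In the Isl1 set, the ribosomal protein genes moved with the scale of the libraries as a whole. Their shares were 3.90%, 3.24%, 2.86% and 2.92% in CreNeg and 2.97%, 3.38% and 2.70% in the libraries labelled CrePos, which overlapped. None of the 77 members tested was called by limma, edgeR or DESeq2 (14595 genes tested, 0.678% of all genes higher and 1.32% lower). As a description, 76 values were below 0, with a median of -0.43, and 18 were at an unadjusted p under 0.05, but the median of all genes was also -0.42. Library totals on the deposited scale stood at 0.814 ± 0.0518 of the mean of 1 in CreNeg (SD, n = 4) and at 0.697 ± 0.0584 in CrePos (n = 3, replicate 2 included), and the upper quartile at 28.7 and 21.3 CPM. With equal upper quartiles the members' median was 0.02 and that of all genes -0.03, so the direction of the whole family turned with the scale. The distance between these medians ran from -0.14 to 0.07 over 14 settings. Without a filter on low values they were -0.42 and -0.28. With 100 units of the other RNA as the base, the 79 genes stood at 4.80 ± 0.611 units in CreNeg. In CrePos replicates 1 and 3 they stood at 4.40 and 4.39 units, and in replicate 2, the titled outlier, at 5.61, which lifts the mean of the 3 to 4.80. Rpl3l was at 0, 0, 1.25 and 0 CPM in CreNeg and at 0.746, 0.0103 and 0.156 CPM in CrePos, with 4 of 7 libraries at or under the floor, and no fold is given. Levels in the Isl1 set were not tested against those of the 18 libraries, and values of both sets given side by side are descriptions only. Mitochondrial genes are listed at 0 in the 18 libraries and above 0 in the Isl1 set, which changes the totals.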

How the data were processed

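Laser-captured mouse tissue was profiled by RNA-seq in 25 libraries. RNA was amplified with random and poly-T primers by a kit that keeps no strand (per the labels' protocols). TopHat2 2.0.6, edgeR and the build mm8 are named in the submitters' processing notes. The deposited values are a signal scaled by the authors with TMM and one constant. Dividing by that constant (24.3) gave CPM. Among the low values of each library, whole reads were recovered for 100% (within 0.1 read). Rows with many reads, such as most ribosomal protein rows, were not part of that check. The total per library was 5101711 to 17997496 reads in the tissue set and 45298069 to 88020254 in the Isl1 set. Shares and floors of 3 reads cover counting error only.

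The main test was limma 3.58.1 (R 4.3.3) on log2(CPM + 1) with a trended variance, Benjamini-Hochberg adjusted over all genes tested, with a filter of 1 CPM in at least 3 libraries (2 in the Isl1 set). The 18 libraries were fitted together, 6 groups sharing 1 estimate of the spread. A gene was called at an adjusted p under 0.05. Fold changes on this scale understate changes of low genes. The test was checked on simulated data. Alternatives were other pseudocounts, filters and scales, library weights, a replicate block, each library left out, and edgeR 4.0.16 and DESeq2 1.42.0 on the recovered reads, since the deposited values are not counts. All members were counted; named genes are Rpl3 and Rpl3l, other paralogs, the P-stalk and Rpsa, up to 4 called members with the largest change in each comparison, the extremes of level and spread, the closest other rows, and the genes of smallest p in each pathway list. Pathway lists and markers were written by hand. The members and lists were chosen with earlier results of these data known. Promoter windows and gene synonyms are from RefSeq (GRCm38.p6), coding lengths (matched for 79 of 79 members), transcripts and biotypes from GENCODE M21. No coordinate of the build mm8 was used. No row named Rpl13, Rpl10l or Rps4l was among the 20870 rows used. Results on some single genes are not reported here.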

Additional observations from a re-analysis of the deposited data

Results flagged for a closer look

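Groups of 3 libraries are too small for an outlier test, so only the 4 CreNeg libraries were tested for a distant library. The test was Dixon's criterion at the 95% level, by which chance marks about 1 in 20 quantities if they are independent. The 38 quantities tested are not, since genes of a library share its scale, and 5 were marked. CreNeg replicate 1 stood apart in 4 of them, each time as the highest: Rpl3 at 542 CPM (nearest library 350.0), Rpl4 at 753 CPM (nearest 537), Rplp0 at 507 CPM (nearest 312) and Rpl7l1 at 26.2 CPM (nearest 13.6). The same library had the largest ribosomal protein share of its group, 3.90%. Its total on the deposited scale was also the largest, at 0.890 of the mean against 0.776 to 0.801. CreNeg replicate 3 was marked for Rpl3l, at 1.25 CPM where the others were at 0. Beside libraries at 0 any value above 0 is marked, so this mark says nothing about its size. The cause of these values was not tested.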

How the results depend on the processing

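The fall of the family in the SAN from E14.5 to P14 was called for 66 to 77 of 78 members under every setting except centring on the members' own median, which removes it by construction (0 called), and for 65 to 73 members without any 1 library. Depth limits Rpl3l and Rpl39l, which rest on few reads. The shares of all genes called, given above, belong to the main fit. Those under other settings or without a library are not given here, so the counts below lack that reference.

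Between tissues over all stages, 0 members were called with a pseudocount of 0.1, without a filter and with the replicate block, and 3 with library weights. At E14.5 the sarcomere gene scale gave 1 and library weights 5. From E14.5 to P4, edgeR gave 6 in the SAN, and in the RA the sarcomere scale gave 5 and weights 7. From P4 to P14 in the SAN, the sarcomere scale gave 2 and edgeR 3. In the RA for that interval, equal upper quartiles gave 1, the sarcomere scale 25, equal totals 2, equal totals without ribosomal protein, hemoglobin and mitochondrial genes 1, edgeR 1, DESeq2 1 and weights 63. For the RA from E14.5 to P14, equal upper quartiles gave 24, edgeR 14 and DESeq2 20, and the sarcomere scale 70 and weights 72. The difference between tissues gave 1 with weights. Centring on the members' median, chosen after seeing the data, gave 0 between tissues, 0 in the SAN and 0 in the RA from E14.5 to P4, 1 and 1 from P4 to P14, and 2 in the RA from E14.5 to P14. On that scale the SAN value of Rpl3 from E14.5 to P14 turned to 0.18. As units per 100 of the other RNA in place of a share of the total, the ribosomal protein genes of the Isl1 set stood at 4.80 in CreNeg and 4.80 in CrePos, the latter with replicate 2 (5.61) included. Other settings do not apply to shares. Apart from the members' own median, the cause of these changes was not tested.

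Leaving out 1 library at a time gave 0 to 1 called members between tissues over all stages, 4 to 23 and 0 to 7 from E14.5 to P4 in the SAN and the RA, 1 to 10 and 1 to 23 from P4 to P14, and 31 to 52 from E14.5 to P14 in the RA. Replicate numbers did not pair the tissues: correlations of same-numbered libraries were -0.17 to 0.18, and 3 of 9 SAN libraries correlated best with their own number. The replicate block gave 1 call (Rpl3, -0.82) between CrePos and CreNeg and otherwise moved no count by over 1.5 times except that between tissues.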
